A study of Mus musculus with 4 samples.

Results

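The Krtap genes encode the keratin-associated proteins of hair, and 48 of the 26354 promoters in a table of H3K9me2 read counts from mouse aortic smooth muscle carry a gene symbol that begins with Krtap. Members were chosen by symbol alone, so other hair genes, such as the hair keratins, are not members and appear here only for comparison. H3K9me2 (histone H3 lysine 9 dimethylation) was measured by ChIP-seq (chromatin immunoprecipitation followed by sequencing) in the aortic media of male C57Bl/6J mice, the layer of smooth muscle cells. The tissue was fixed after dissection without culture, once fat had been dissected off and the adventitia and endothelium stripped by hand. Experiments v102 and v134, run independently, each had 1 H3K9me2 ChIP library and 1 input library of sheared chromatin without immunoprecipitation. All 4 libraries share strain, sex and tissue, and no genotype or treatment differed, so the comparison is ChIP with input from the same tissue. The animals' ages and the number of animals per library are not given in the sources used here, and cells of other types that survive the stripping would contribute to both library types.

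Keratin-associated proteins are small proteins that fill the space between keratin filaments in the hair shaft and cross-link them. They fall into high-sulfur and ultra-high-sulfur proteins, both rich in cysteine, and high-glycine-tyrosine proteins, and their genes lie in dense clusters that are expressed in the maturing cells of the hair follicle. H3K9me2 is a histone mark laid down mainly by the methyltransferases G9a and GLP, known for covering broad silent domains in many tissues.

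RefSeq on GRCm38.p6 places 47 of the 48 Krtap promoters, 39 by their current symbol and 8 by an older one. Krtap16-10a had no match and has no position here. The older symbols all lie on chromosome 16 and belong to genes now named Krtap19-1 (listed as Krtap16-2), Krtap19-2 (Krtap16-1), Krtap19-3 (Krtap16-5), Krtap19-4 (Krtap16-4), Krtap19-5 (Krtap8-2), Krtap19-9b (Krtap16-10b), Krtap6-5 (Krtap16-8) and Krtap21-1 (Krtap16-7). The symbol Krtap16-1 now also names a chromosome 11 gene, which the table lists separately under its older symbol Gm11570. Each of the 47 genes is annotated with 1 exon. For 8 of them the start lies within another RefSeq gene and outside its exons, as for Krtap6-3 (Gm41487) and Krtap9-3 (Gm32730). The members fall into a chromosome 16 cluster of 21 genes over 959 kb, a chromosome 11 cluster of 21 genes over 443 kb, a chromosome 7 cluster of 4 Krtap5 genes over 102.1 kb, and the lone Krtap12-1 on chromosome 10, whose start lies within Tspear on the same strand and outside its exons.

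The 250 bases before the annotated start are shown for 6 members that span the range of H3K9me2 in the 3 clusters, from RefSeq on GRCm38.p6 and read 5′ to 3′ on the gene's own strand. They are Krtap6-3 (chr16:89083774-89084023, plus strand), Krtap8-2 (chr16:88896450-88896699, minus strand) and Krtap16-1 (chr16:88874270-88874519, minus strand), which were the highest pair and the lowest of chromosome 16. Krtap1-5 (chr11:99581017-99581266, minus strand) and Krtap17-1 (chr11:99993995-99994244, minus strand) were the highest and lowest of chromosome 11, and Krtap5-1 (chr7:142297135-142297384, minus strand) was the lowest of all. Capitals mark the letters TATAAA, a form of the TATA box.
Krtap6-3: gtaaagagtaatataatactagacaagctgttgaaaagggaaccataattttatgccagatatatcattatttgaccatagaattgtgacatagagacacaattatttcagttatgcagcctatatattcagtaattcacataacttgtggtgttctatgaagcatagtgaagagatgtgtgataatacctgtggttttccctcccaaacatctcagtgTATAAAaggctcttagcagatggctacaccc
Krtap8-2: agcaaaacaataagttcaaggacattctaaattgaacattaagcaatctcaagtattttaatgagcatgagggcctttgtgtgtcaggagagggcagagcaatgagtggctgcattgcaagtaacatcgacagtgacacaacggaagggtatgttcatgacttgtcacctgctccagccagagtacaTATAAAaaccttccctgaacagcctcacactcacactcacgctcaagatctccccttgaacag
Krtap16-1: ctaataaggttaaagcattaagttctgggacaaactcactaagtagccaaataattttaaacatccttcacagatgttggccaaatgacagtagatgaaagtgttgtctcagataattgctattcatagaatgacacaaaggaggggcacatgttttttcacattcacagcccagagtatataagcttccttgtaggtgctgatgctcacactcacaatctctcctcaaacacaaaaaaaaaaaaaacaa
Krtap1-5: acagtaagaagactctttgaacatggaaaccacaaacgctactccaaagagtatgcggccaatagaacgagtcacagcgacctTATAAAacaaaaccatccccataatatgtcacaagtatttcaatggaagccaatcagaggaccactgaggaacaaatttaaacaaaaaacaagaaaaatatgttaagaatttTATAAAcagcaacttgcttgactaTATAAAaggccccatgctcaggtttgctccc
Krtap17-1: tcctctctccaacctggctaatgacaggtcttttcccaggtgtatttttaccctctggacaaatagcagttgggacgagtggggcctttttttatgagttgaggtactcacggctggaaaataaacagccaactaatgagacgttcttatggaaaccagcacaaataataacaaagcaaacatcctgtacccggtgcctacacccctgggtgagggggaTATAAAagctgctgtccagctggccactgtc
Krtap5-1: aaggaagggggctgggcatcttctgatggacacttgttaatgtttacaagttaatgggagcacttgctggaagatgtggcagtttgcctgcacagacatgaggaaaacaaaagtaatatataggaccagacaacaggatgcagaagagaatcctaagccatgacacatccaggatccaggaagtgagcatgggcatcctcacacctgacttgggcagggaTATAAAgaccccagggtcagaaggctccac

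The Krtap5-1 and Krtap17-1 promoters have 1 copy of TATAAA each, like Krtap6-3 and Krtap8-2 at the upper end, while Krtap1-5 has 3 copies and Krtap16-1 none. Over the 43 members in the RefSeq promoter table, which holds 250 bases before and 50 bases after each start, 34 (79.1%) had TATAAA on either strand, compared with 13.6% of all 32851 promoters of that table. On the gene's own strand and between 40 and 20 bases before the start, TATAAA was present in 26 members (60.5%) and in 1.99% of all promoters. This position held a TATAAA in 16 of 19 members on chromosome 11 (84.2%), 8 of 20 on chromosome 16 and 2 of 4 on chromosome 7. Anywhere in the window and on either strand, TATAAA was in 18 of 19, 13 of 20 and 3 of 4. Related letters, such as the tatataa in the Krtap16-1 sequence above, were not counted. The GC box GGGCGG, a site of Sp1, was absent from all 43 windows on both strands and present in 35.7% of all promoters. CTTTGNA, the core of Lef1 and Tcf sites, was found on either strand in 12 members (27.9%) against 18.1% of all promoters, and TTTATNG, a Hox-like sequence whose complement can overlap TATAAA, in 6 (14.0%) against 10.9%. The dinucleotide CG was present in 35 members (81.4%) and in 94.6% of all promoters. These matches describe the letters of the windows and do not locate bound factors.

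Over the listed promoters, the ChIP libraries held 162233 and 229605 reads in experiments v102 and v134, and the input libraries 619100 and 1084349. The median Krtap promoter had 12.5 ChIP reads in experiment v102 (range 1 to 37) and 18 in experiment v134 (range 1 to 49), compared with 4 and 5 at the median of all promoters. Its input reads were 16 (range 5 to 27) and 32 (range 16 to 57), compared with 20 and 37 for all promoters. The members' ChIP counts thus exceeded those of the median promoter, while their input counts lay slightly below it. Of the 48, 9 had at least 20 reads in each input, so single ratios carry a wide counting error. Windows of 1 kb on either side of the start did not overlap between members, and 36 of 47 had at least 90% of their 75-base words unique in the genome, compared with 95.7% of all placed promoters. The largest sharing between members was in Krtap31-1 and Krtap31-2 (16.6% of words in common) and in Krtap3-2 and Krtap3-3 (13.4%), so reads of these pairs could be divided between them or lost.

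Krtap promoters carried more H3K9me2 than most promoters of the table, and none carried less than input by the test. The log2 H3K9me2/input ratio was taken per experiment from reads scaled by the library's promoter total, with a pseudocount of 1 read, and 0 is the level of the pooled promoters. The median over the 48 members was 1.504 in experiment v102, 1.17 in v134 and 1.35 for the mean of both, compared with −0.45 over all promoters. The ratio was positive in both experiments at 42 of the 48. Summed over the members, the H3K9me2/input ratio was 3.36 times that of all promoters in experiment v102 and 2.74 times in experiment v134. Their median percentile in the ranking of all promoters was 89.4, and 23 of the 48 lay in the top decile. The top quartile of both experiments held 33 members, and 17.9% of all promoters.

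Counts of the ChIP libraries were set against those of the inputs by edgeR (quasi-likelihood test, p adjusted by Benjamini-Hochberg over all 26354 promoters), and a promoter was called above or below input at an adjusted p under 0.05. Called above were 31 of the 48 Krtap promoters (64.6%), against 18.6% of all promoters. No member was called below, against 17.0% of all promoters, and at an unadjusted p under 0.05 the number below was also 0, as it was by DESeq2. The test compares 2 libraries with 2, so its p-values measure the spread between these libraries. Each ChIP has its own input, and with the experiment as a block 28 members stayed above, all among the 31, against 15.8% of all promoters. The calls lost were Krtap4-2 (adjusted p 0.0174 without and 0.0698 with the block), Krtap4-8 (0.0397 and 0.0988) and Krtap31-2 (0.0451 and 0.111), all on chromosome 11. DESeq2 called 26 above, with 15 adjusted p undefined, against 3058 above among all 26354 promoters. Fold changes of the test are centered by TMM, and with library totals in their place the median of all promoters moved by −0.14 on the log2 scale and 29 members were above.

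**Figure D1:**
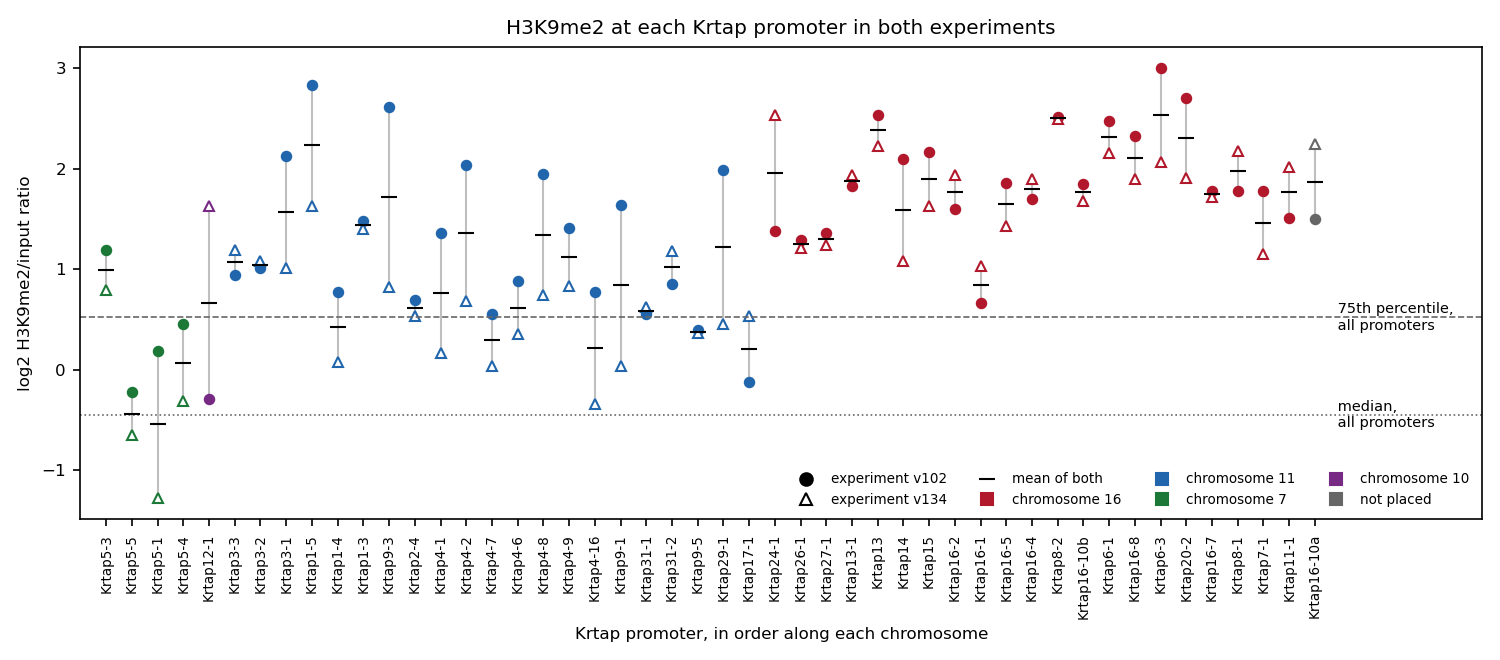
The log2 H3K9me2/input ratio (vertical axis) of each of the 48 Krtap promoters, ordered along each chromosome, with filled circles for experiment v102, open triangles for experiment v134 and a bar for their mean. Dotted and dashed lines mark the median (−0.45) and the 75th percentile (0.52) of all promoters, and all 21 chromosome 16 members lie above the dashed line in their mean.

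On chromosome 16, H3K9me2 was high along the whole cluster. These 21 promoters had a median log2 ratio of 1.83 in experiment v102 and 1.90 in experiment v134, their mean values ranged from 0.85 to 2.53, and the ratio was positive in both experiments at all 21. ChIP reads ran from 5 to 37 in experiment v102 and from 16 to 49 in experiment v134. Called above were 20 of the 21, with and without the block and by DESeq2, and 20 were in the top quartile of both experiments. Leaving out any 1 of the 4 libraries kept the count at 20 or 21.

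The highest was Krtap6-3 (89084024 to 89084534), a high-glycine-tyrosine gene, with 20 and 26 ChIP reads in the v102 and v134 libraries against 8 and 27 in input. Its log2 ratio was 2.53 ± 0.66 (SD, n = 2), and its log2 fold change by edgeR was 2.68 (SE 0.41, adjusted p 3.26e-09). The other Krtap6 genes, Krtap6-1 (log2 ratio 2.32) and Krtap6-5 (listed as Krtap16-8, 2.11), were also called above. Krtap8-2 (88895968 to 88896449), now named Krtap19-5, had 24 and 42 ChIP reads against 14 and 32 input reads, and its log2 ratio was nearly equal in both experiments at 2.51 and 2.50. Its deposited ratio of ChIP to input reads was 1.43 (95% Wilson interval 0.987 to 2.09, counting error only), compared with a median of 0.162 over all promoters, and its edgeR log2 fold change was 2.78 (adjusted p 6.63e-12). The third, Krtap13 (88750744 to 88751628), a high-sulfur gene, had 21 and 26 ChIP reads against 12 and 24 input reads and a log2 ratio of 2.38 ± 0.22. At all 3, ChIP reads approached or exceeded the input reads, although the input libraries held several times more reads in all. Krtap20-2 (89205861 to 89206394), the member with the most input reads, had 37 and 49 ChIP reads against 19 and 57 input reads, with a log2 ratio of 2.30 ± 0.56 and an edgeR adjusted p of 1.88e-11.

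By family, 5 of the 6 Krtap19 promoters of the high-glycine-tyrosine class were above, with a median log2 ratio of 1.77 and a range from 0.85 to 2.51. Krtap16-10b, now Krtap19-9b, whose product holds no cysteine, had 20 and 36 ChIP reads against 19 and 49 in input and a log2 ratio of 1.76 ± 0.12. The high-sulfur genes Krtap13-1, Krtap14 and Krtap15 had log2 ratios of 1.88, 1.59 and 1.90, and all 3 were above. At the end of the cluster with the highest coordinates, Krtap8-1 (1.98), Krtap7-1 (1.46) and Krtap11-1 (1.77) were above as well. Krtap11-1 had 14 and 27 ChIP reads against 17 and 29 in input, and its window was the richest in GC of the cluster (49.1%). Each family of the cluster thus held at least 1 promoter called above.

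The lowest promoters of the cluster were still above most of the table. Krtap16-1 (88873665 to 88874269), now Krtap19-2, had 5 and 16 ChIP reads against 12 and 35 input reads, a log2 ratio of 0.85 ± 0.26 and an edgeR adjusted p of 0.0564, and was the single chromosome 16 member not called. Without the H3K9me2 library of experiment v102 its adjusted p was 0.00585. It shares 2.61% of its 75-base words with its neighbor Krtap16-2. Krtap26-1 had 14 and 22 ChIP reads against 20 and 42 input reads, with a log2 ratio of 1.25 ± 0.05 (adjusted p 0.00152), and Krtap27-1 had 17 and 23 against 23 and 43, with a log2 ratio of 1.30 ± 0.08 (adjusted p 0.000617). These high-sulfur genes lie at the end of the cluster where coordinates are lowest, beside Krtap24-1. That promoter had 18 and 39 ChIP reads against 24 and 29 input reads and differed more between experiments, with log2 ratios of 1.38 and 2.53.

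On chromosome 11 the level was lower and varied more. The 21 promoters had a median log2 ratio of 1.01 in experiment v102 and 0.62 in experiment v134, their means ranged from 0.21 to 2.23, and 16 of the 21 were higher in the first. Called above were 10, or 7 with the block and 5 by DESeq2, which left 10 undefined. The count depended on every library, with 6 called without the H3K9me2 library of experiment v102 and 6 without that of v134, 5 without the input of experiment v102 and 4 without that of v134. Where each input had at least 20 reads, 0 of 3 were called on chromosome 11 and 5 of 5 on chromosome 16. These promoters had the same calls without this minimum. In the top quartile of both experiments were 11.

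The highest of this cluster was Krtap1-5 (99579977 to 99581016), a high-sulfur gene, with 24 and 34 ChIP reads against 11 and 48 in input, for v102 and v134 in turn. Its log2 ratio was 2.23 ± 0.85 (SD, n = 2) and its edgeR log2 fold change 2.29 (SE 0.36, adjusted p 1.39e-08). Krtap9-3 (99597348 to 99598106) had 24 and 8 ChIP reads against 13 and 21 input reads, and its log2 ratio was 2.61 in experiment v102 but 0.83 in experiment v134. Its adjusted p was 1.83e-05, and 0.172 without the H3K9me2 library of experiment v102, so the call rested on that library. Krtap3-1 (99566027 to 99566630) had 22 and 18 ChIP reads against 17 and 40 input reads, a log2 ratio of 1.57 ± 0.79 and an adjusted p of 7.88e-05. All 3 Krtap3 genes were called above with and without the block, and DESeq2 called 1 of them. The calls of Krtap3-2 and Krtap3-3 were also lost without any 1 of 3 libraries (the ChIP of v134 or either input). In experiment v102, 6 chromosome 11 members exceeded the chromosome 16 median, and in experiment v134 none did.

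Families of this cluster were divided. Of the 3 Krtap1 promoters 2 were above, and Krtap1-3 had 12 and 16 ChIP reads against 15 and 27 in input, with nearly equal log2 ratios of 1.48 and 1.40, while Krtap1-4 had 0.78 and 0.07. Of the 3 Krtap9 promoters 1 was above, and Krtap9-1 and Krtap9-5 had mean log2 ratios of 0.84 and 0.38. Krtap31-1 and Krtap31-2, which share window sequence, had mean log2 ratios of 0.59 and 1.02, and the call of the second was also lost without any 1 of 3 libraries (the ChIP of v134 or either input). Krtap29-1, a high-sulfur gene with 21 and 11 ChIP reads against 18 and 37 in input, had log2 ratios of 1.99 and 0.45 in v102 and v134, and its edgeR adjusted p rose to 0.218 without the H3K9me2 library of experiment v102. Krtap2-4, the single Krtap2 gene listed, had 0.61 ± 0.12 and was not called.

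The lowest were Krtap17-1 (99993232 to 99993994), Krtap4-16 (99850655 to 99851605) and Krtap4-7 (99643112 to 99644089), all with ultra-high-sulfur products. Krtap17-1 had 6 and 10 ChIP reads against 25 and 32 input reads, with log2 ratios of −0.12 and 0.53 (adjusted p 0.534). Krtap4-16 had 9 and 5 against 19 and 32, with log2 ratios of 0.78 and −0.34 (adjusted p 0.562). For Krtap4-7 the reads were 8 and 8 against 20 and 37, with log2 ratios of 0.55 and 0.04 (adjusted p 0.501). None of the 3 was separated from input by edgeR's test, and their mean log2 ratios still lay above the median of all promoters. Krtap4-9, the member with the fewest input reads, had 6 and 6 ChIP reads against 8 and 16 input reads, a log2 ratio of 1.12 ± 0.41 and an adjusted p of 0.100. Of the 7 Krtap4 promoters, 2 were called above, and 0 with the block.

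The chromosome 16 cluster stood above the chromosome 11 cluster in both experiments. The summed H3K9me2/input ratio relative to all promoters was 4.27 on chromosome 16 and 2.79 on chromosome 11 in experiment v102, and 3.78 and 1.72 in experiment v134. Chromosome 16 was thus 1.53 and 2.20 times chromosome 11, or 1.86 ± 0.47 times (SD, n = 2). Of the 21 chromosome 16 members, 20 in experiment v102 and 21 in experiment v134 exceeded the chromosome 11 median. Members of a cluster share their libraries and are neighbors, so this is given as a description with no test.

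At the Krtap5 genes of chromosome 7 and at Krtap12-1, no promoter was called above or below input when all promoters were tested. Krtap5-3 had 5 and 7 ChIP reads against 8 and 19 input reads, with a log2 ratio of 0.99 ± 0.28 (edgeR adjusted p 0.149), and was the single one of the 4 in the top quartile of both experiments. Krtap5-4 had 5 and 4 against 14 and 26 (log2 ratio 0.07 ± 0.54), and Krtap5-5 had 3 and 4 against 15 and 33 (−0.44 ± 0.30). Krtap5-1 had 1 and 1 against 5 and 20, the fewest ChIP reads of any member, with log2 ratios of 0.19 and −1.27 (adjusted p 0.293). Its deposited ratio of 0.080 had a 95% Wilson interval from 0.021 to 0.305, which includes the median of all promoters (0.162). The summed ratio of the 4 was 1.27 times that of all promoters in experiment v102 and 0.77 times in experiment v134. Only 1 of these 4 windows, that of Krtap5-4, had at least 90% unique 75-base words, and in Krtap5-3 75.8% were unique.

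Krtap12-1, a high-sulfur gene, had 4 and 14 ChIP reads against 20 and 20 input reads, and the experiments differed, with log2 ratios of −0.30 and 1.63 (adjusted p 0.0895). Without the H3K9me2 library of experiment v102 the adjusted p was 0.00905. The unplaced Krtap16-10a had 13 and 35 ChIP reads against 16 and 32 input reads, a log2 ratio of 1.87 ± 0.53 and an adjusted p of 2.38e-07. Its mean lay within the ranges of both the chromosome 16 and the chromosome 11 members, so the level does not place it.

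Products were classed from the RefSeq proteins. Those with at least 35% glycine and tyrosine counted as high glycine-tyrosine, and others with over 30% cysteine as ultra-high sulfur. All the rest counted as high sulfur, with no minimum of cysteine. Called above were 11 of 13 high-glycine-tyrosine promoters (84.6%, median log2 ratio 1.80) and 16 of 20 high-sulfur promoters (80%, 1.38), against 18.6% of all promoters. Of 14 ultra-high-sulfur promoters 3 were above (21.4%, median 0.50), which is near the share of all promoters. With the block 1 of these 14 was above, against 15.8% of all promoters. Class and place were not independent, since all high-glycine-tyrosine genes but Krtap5-3 lie on chromosome 16, and the ultra-high-sulfur genes lie on chromosomes 7 and 11. Within chromosome 16, 11 of 12 high-glycine-tyrosine and 9 of 9 high-sulfur promoters were above, with medians of 1.89 and 1.77. Within chromosome 11, 7 of 10 high-sulfur promoters were above, or 6 with the block (median 1.06), and 3 of 11 ultra-high-sulfur promoters, or 1 with the block (median 0.76). High-sulfur promoters thus had a median of 1.77 on chromosome 16 and 1.06 on chromosome 11. By this rule Krtap5-3 counts as high glycine-tyrosine (39.3% glycine and tyrosine), although 35.1% of its residues are cysteine, as in the other Krtap5 proteins.

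Krtap promoters are poor in GC, and the ratio falls with GC over the whole table. The median GC content of the 2 kb window was 39.8% on chromosome 16, 45.4% on chromosome 11 and 53.3% on chromosome 7, compared with 50.9% for all placed promoters. Across the 47 placed members, the log2 ratio and GC had a Pearson r of −0.68 (Spearman rho −0.69), points that share libraries, clusters and base composition. Within chromosome 11 r was −0.46 and within chromosome 16 −0.03 (n = 21 each). Other promoters in the GC range of the chromosome 16 members (34.9 to 49.1%) had a median log2 ratio of 0.24 and 32.4% were called above. In the range of the chromosome 11 members (39.8 to 52.1%) the median was −0.16 and 20.8% were above. These ranges run from the lowest to the highest member. From 38 to 40% GC, which holds the chromosome 16 median, other promoters had a median log2 ratio of 1.01. From 44 to 46%, which holds the chromosome 11 median, it was 0.09. Against a smooth trend with GC fitted to promoters outside the family, 20 of 21 chromosome 16 members, 21 of 21 on chromosome 11 and 4 of 4 on chromosome 7 lay above the trend, by medians of 1.11, 0.86 and 0.54 on the log2 scale. With the trend removed, the median percentile of the members was 82.8, and 20 of 47 (42.6%) were in the top quartile of both experiments, compared with 14.2% of all placed promoters. The part of GC content in the level of the members was not tested.

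**Figure D2:**
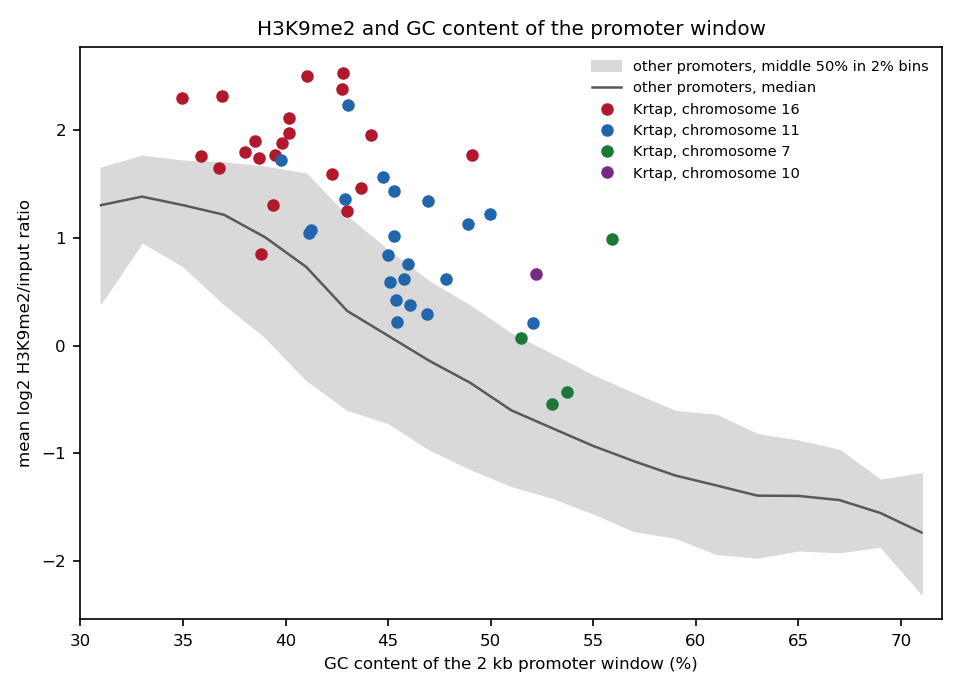
Mean log2 H3K9me2/input ratio of both experiments (vertical axis) against GC content of the 2 kb promoter window in percent (horizontal axis) for the 47 placed Krtap promoters, colored by chromosome, over the median (line) and the middle 50% (band) of all other placed promoters in bins of 2% GC. The chromosome 16 members are at the low-GC side, and all but Krtap16-1 lie above the line.

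Other listed promoters also lie within the clusters. Neighbors inside and beside the clusters are counted only among the 84.9% of listed promoters that could be placed. Of all promoters 18.6% were called above, or 15.8% with the block. Inside the chromosome 16 cluster, the 12 other placed promoters were all called above, with and without the block (median log2 ratio 1.67). For 6 of them RefSeq names a keratin-associated product, although the symbol does not begin with Krtap, and their median was 2.03. Gm7735, whose product is keratin-associated protein 20-2-like, had 24 and 23 ChIP reads against 9 and 23 input reads and the highest log2 ratio, 2.61. Inside the chromosome 11 cluster, 7 of 13 other placed promoters were above (5 with the block, median 0.99), and 11 of the 13 have keratin-associated products by RefSeq. The chromosome 11 gene listed as Gm11570 was given no position here and is not among the 13. In the chromosome 7 cluster neither of the 2 other promoters was called.

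Beside the chromosome 16 cluster, 4 of 10 promoters (40%) were above and 2 (20%) below, against 18.6% and 17.0% of all promoters. With the block 2 were above and 1 below, against 15.8% above and 2187 of 26354 below among all promoters. Apart from the 40%, these counts are near the shares of all promoters. On the side of lower coordinates the promoters of the claudin genes Cldn8 and Cldn17, 49.1 and 105 kb away, were within the members' range, with log2 ratios of 1.63 and 2.01. Grik1, 321 kb away, had 0.97 (adjusted p 0.0356 without and 0.0741 with the block), and Bach1, 913 kb away, had −1.03. On the other side the nearest placed promoter, Tiam1, lay 574 kb away with 0.75 (adjusted p 0.0357 and 0.0575). Scaf4, 715 kb away with 0 and 1 ChIP reads against 25 and 33 input reads, was below input (adjusted p 0.0046, and 0.0276 with the block). The cluster on chromosome 11 lies between keratin genes, and 6 of its 10 flanking promoters were above, among them Krt40, which begins 7.64 kb from the nearest member with a log2 ratio of 1.65, and Krt39 with 1.82. Krt33a, 22.2 kb beyond the other end, had 0.44 and was not called, and Krt32, 94.3 kb away, had 2.19. Around the chromosome 7 cluster, Mob2 was below input with 0 ChIP reads in both experiments against 23 and 42 input reads (adjusted p 0.000236), Dusp8 was below without the block (adjusted p 0.0203 and 0.0639) and Ctsd above (0.00505). Of the 5 nearest promoters at lower coordinates than Krtap12-1, 3 were above, including that of C330046G03Rik (Tspear) with a log2 ratio of 1.72. On the other side none of the 5 nearest was called above or below, with log2 ratios from −1.24 (Gm3233) to 0.79 (Gm10318, whose product is keratin-associated protein 10-4-like).

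**Figure D3:**
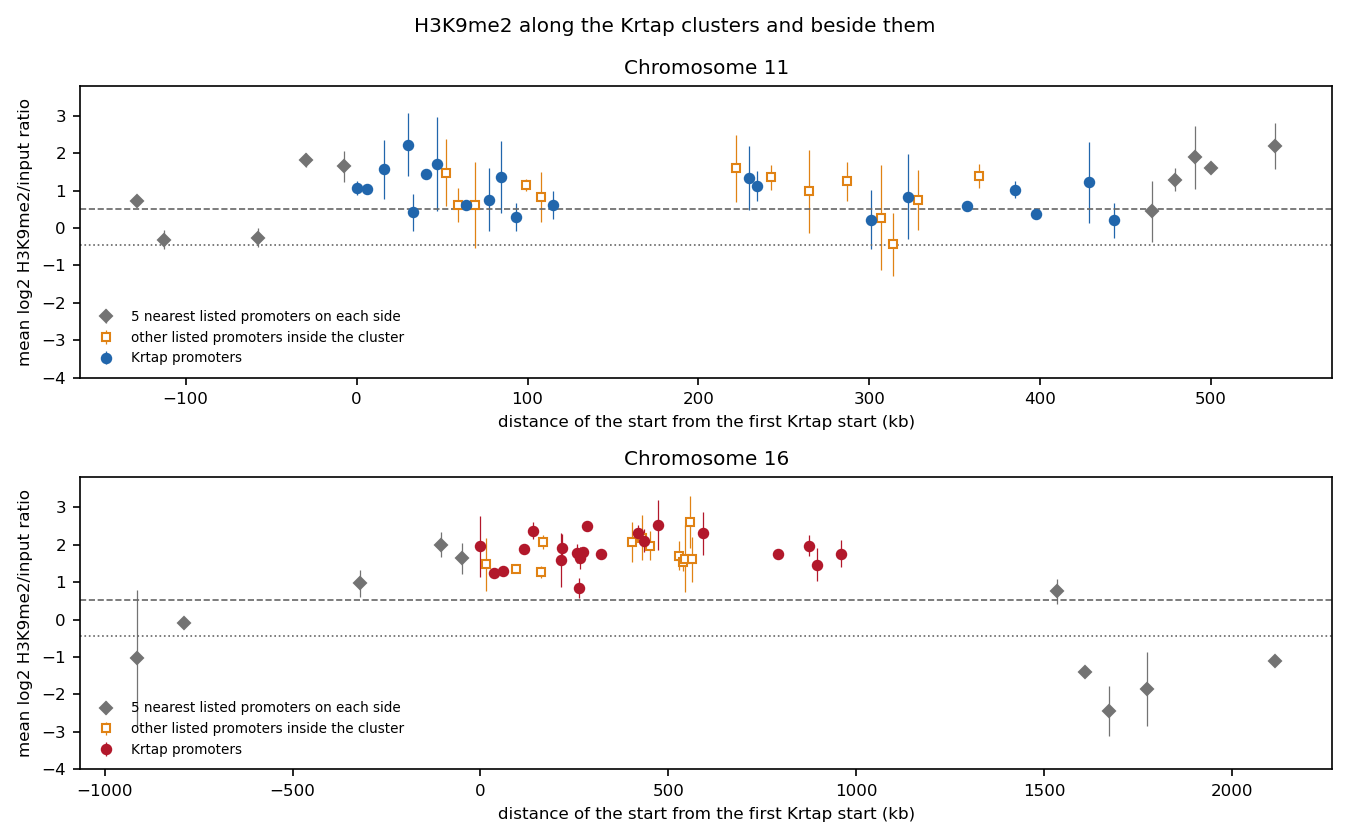
Mean log2 H3K9me2/input ratio (vertical axis, bars are the SD of 2 experiments) against the distance of each annotated start from the first Krtap start in kb (horizontal axis) on chromosomes 11 and 16. Filled circles are Krtap promoters, open squares other listed promoters placed inside the cluster, and diamonds the 5 nearest placed promoters on each side. Dotted and dashed lines are the median and 75th percentile of all promoters. On chromosome 16 the squares lie among the circles and the 4 last diamonds lie between −2.45 and −1.11.

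The other genes of hair were divided. Of the 22 listed hair keratin promoters, which were not limited to keratins of the hair shaft, 11 were called above (9 with the block) and 0 below. The median log2 ratio of these 22 was 0.88. Krt32 had 26 and 28 ChIP reads against 14 and 36 input reads, with a log2 ratio of 2.19 ± 0.61 (adjusted p 9.31e-09), the highest of all 71 listed hair genes, followed by Krt34 (1.89) and Krt39 (1.82). Of the 49 other hair genes, 3 (6.1%) were above, with and without the block, against 18.6% of all promoters. Below were 10 (20.4%), or 5 with the block, and the first share is near the 17.0% of all promoters. Their median was −0.79. The 3 called above were Tchh (trichohyalin of the inner root sheath, log2 ratio 1.09), Dsg4 (a desmosomal cadherin of hair, 1.10) and Prr9 (1.32). The 3 with the lowest ratios were Ovol1, Trps1 and Cux1, which encode transcription factors, and Bmpr1a (a BMP receptor, log2 ratio −2.42) and Tgm1 (a transglutaminase, −2.20) followed. Ovol1 had 0 ChIP reads in both experiments against 27 and 27 input reads (adjusted p 0.000817), Trps1 had 0 and 1 against 20 and 52 (0.00112), and Cux1 had 1 and 0 against 22 and 41 (0.00289). Median GC was 49.0% at the hair keratins and 55.4% at the 49 other hair genes. Their median percentiles were 81.9 and 40.1, and 86.7 and 54.5 with the GC trend removed. The part of GC content in this difference was not tested.

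Clustered families of cornified envelope and olfactory receptor genes had medians above the Krtap median, and keratin filament genes had a lower one. Of the 31 Lce and Sprr promoters, which encode proteins of the cornified envelope, 30 were above (96.8%, median log2 ratio 1.78, median GC 41.1%). Of 1024 olfactory receptor promoters 862 were above (84.2%, median 1.59, median GC 38.7%). All 51 keratin filament promoters together had a median of 0.46 with 14 above (27.5%) and 1 below (1.96%). Among all promoters 18.6% were above and 17.0% below, and among the Krtap promoters 64.6% were above. The Krtap median of 1.35 lay between those of the keratins and the olfactory receptors, and the differences between these families were not tested.

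**Figure D4:**
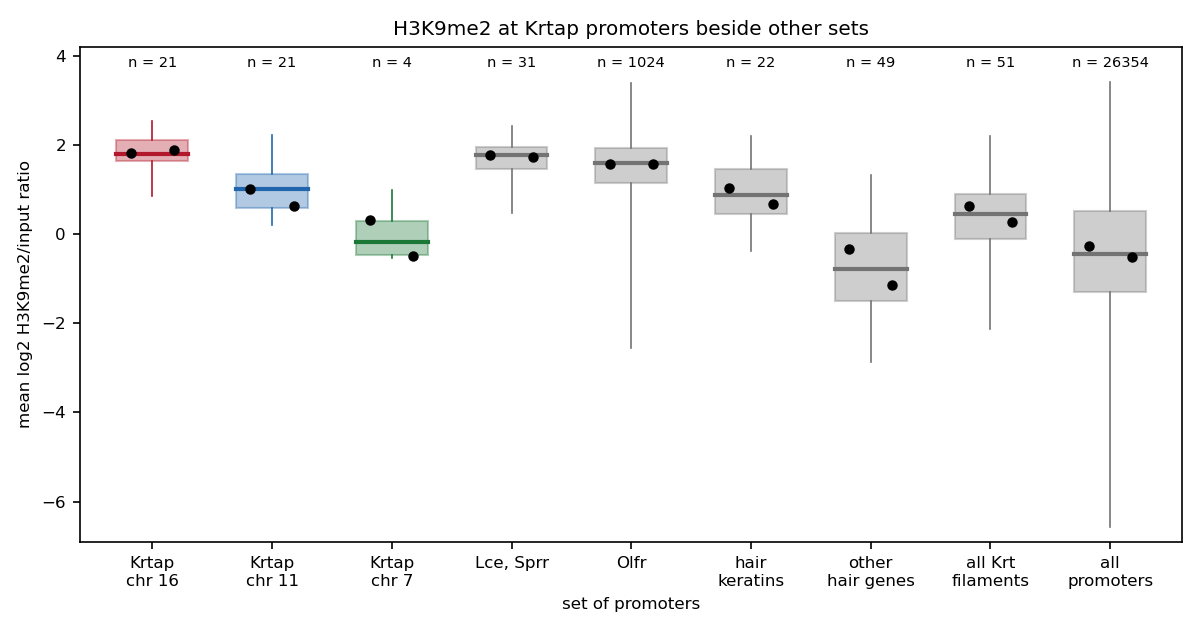
Mean log2 H3K9me2/input ratio (vertical axis) for the 3 Krtap clusters and other sets of promoters (horizontal axis). Boxes span the quartiles, thick lines are medians, whiskers reach the lowest and highest promoter, and black points are the medians of experiment v102 (left) and v134 (right). Chromosome 16 (1.80), Lce and Sprr (1.78) and Olfr (1.59) have the highest medians, and all promoters have −0.45.

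The labelled cell type was checked at marker promoters, which chromatin reads cannot turn into expression. Of 6 smooth muscle markers, Myh11 was below input with 0 ChIP reads against 19 and 41 input reads (adjusted p 0.000485), Myocd was below without the block (0.0213 and 0.0651), Acta2, Tagln and Cnn1 had log2 ratios between −1.91 and −1.09 without a call, and Smtn was above (1.31, adjusted p 0.000169). Of 7 markers of other cells, Ptprc (leukocytes, 1.57) and Krt14 (keratinocytes, 1.18) were above, Pecam1 (endothelium, −1.41) and Pdgfra (fibroblasts, −2.11) were below without the block (adjusted p 0.0922 and 0.0564 with it), and Cdh5, Adipoq and Krt5 were not called. What part other cell types have in the Krtap levels was not tested.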

How the data were processed

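H3K9me2 ChIP and input were sequenced from medial aortic tissue in 2 experiments. According to the submitters' processing notes and the methods, reads were trimmed (Trim Galore 0.4.2, cutadapt 1.9.1), aligned to GRCm38 (Bowtie2 2.2.7) and counted in SeqMonk within 1 kb of each start. The authors deposited raw counts per library, summed counts and the unscaled ratio of summed ChIP to summed input counts, for promoters whose input reads summed to over 20. How duplicate reads were handled and which annotation was used are not given in the sources used here, and starts were taken from RefSeq by symbol. At 46 of 47 members the GENCODE start was within 100 bases, and Krtap15 differed by 8794 bases.

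Counts were tested with edgeR 4.0.16 (R 4.3.3), TMM and quasi-likelihood, and with DESeq2 1.42.0. On simulated counts the edgeR test was checked for recovery of known changes. The GC trend was a lowess fit (fraction 0.3). Clusters join starts under 1 Mb apart. Python 3.11.15 was used. Wilson intervals cover counting error only, since reads are not independent molecules. Each ChIP has its own input according to the methods, so experiment numbers pair the libraries (the v134 minus v102 differences of ChIP and of input had a Pearson r of 0.10 across promoters). Named are the 3 highest and 3 lowest members of each large cluster, all others outside one, and those with most and fewest input reads. Neighbors, marker and hair genes come from lists or position, and the other Krtap members given with values and the neighbors described were picked after their values were seen. Members and lists were chosen with earlier results of these data known.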

Additional observations from a re-analysis of the deposited data

How the results depend on the processing

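No alternative run put any Krtap promoter below input, and the chromosome 16 median stayed above the chromosome 11 median in every setting. With at least 20 reads in each input, 9 members remained, of which 6 were above (5 of 5 on chromosome 16, Krtap12-1, and 0 of 3 on chromosome 11). In both top quartiles were 6 (66.7%), against 16.8% of the 13993 promoters that passed this minimum. The median percentile of the 9 was 93.7, and the median log2 ratios were 1.46 on chromosome 16 and 0.30 on chromosome 11. With the GC trend removed, the family median log2 ratio was 0.96 and its percentile 82.8, 20 members were in both top quartiles, and the medians were 1.11, 0.86 and 0.54 on chromosomes 16, 11 and 7. A pseudocount of 5 reads gave 1.07 for the family and 1.42 for chromosome 16, and 0.5 reads gave 1.86 for chromosome 16. Windows with at least 90% unique 75-base words gave a percentile of 93.0 over 36 members. DESeq2 called 5 chromosome 11 members above. The cause of these moves was not tested, apart from the smaller number of members.

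Leaving out 1 experiment gave family percentiles from 86.3 to 89.9, chromosome 16 medians from 1.83 to 1.90 and chromosome 11 medians from 0.62 to 1.01. Leaving out 1 library gave 4 to 6 calls above on chromosome 11 and 25 to 29 in the family, and log2 fold changes from −0.20 to 1.02 for Krtap4-16 and from −0.17 to 0.53 for Krtap5-4, neither of which was called in any. With library totals in place of TMM, Krtap5-4 had −0.027. The replicate block gave 28 family calls and changed no call beyond those given beside it in the text. Without mitochondrial promoters, or with 1 promoter of each overlapping set, no call or count moved by over 1.5 times.

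Depth limits single promoters. The median member had 12.5 and 18 ChIP reads, and 2 experiments give little information on spread, so a promoter without a call is not shown to lack H3K9me2.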
